A study of Mus musculus with 502 samples.

Results

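Kidney leukocytes that were taken from the organ at once were compared with kidney leukocytes from organs kept cold for 6 h. The comparison used the 76 cells of the 6 h timepoint and the 75 fresh cells whose titles carry the same pool, IM793, out of 502 cells with counts in all. The kidney holds resident macrophages, monocytes and neutrophils that patrol its vessels, dendritic cells and scattered lymphocytes. The organs were not perfused, and leukocytes of the blood and of the tissue cannot be told apart in these data. When a tissue is cooled its metabolism slows but does not stop, and leukocytes are known to respond to handling, warming and enzymatic dissociation with immediate early transcription factors and heat shock chaperones. Type I and gamma interferons act through receptors and STAT proteins to switch on a further shared set of genes, many of which myeloid cells transcribe at a low level at rest.

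All cells came from CD1 wild type mice, an outbred stock, at an age of about 3 weeks. Fresh kidneys were dissociated directly, and preserved kidneys were stored intact in HTS-FRS, a hypothermic organ preservative, at 4 °C for 6 h before the same dissociation with Liberase at 37 °C. Per the methods, both kidneys of a mouse were pooled for each of these times, living cells that stained for surface Cd45, the pan-leukocyte phosphatase encoded by Ptprc, were sorted into plates, and full-length cDNA was made by a protocol adapted from SmartSeq2 without molecular identifiers. The labels do not say which animal a cell came from and each time of this pool is 1 sample, so no test was run, cells are not replicates, and animal, plate, index set and storage time cannot be told apart. Shares are given with exact Clopper-Pearson intervals at the 95% level, and these cover counting error only.

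The fresh cells held a median of 712369 counts on genes (range 1759 to 1139332) and the 6 h cells 962322 (range 11737 to 1455372), so the 6 h cells were the deeper ones. Fewer genes were nevertheless read at 6 h than in these fresh cells, the median cell having a read of 2136 genes (quartiles 1721 and 2830.2) against 2649 in fresh cells (quartiles 1837 and 3712). The fresh cells of the other pool, IM834, had a lower median still, of 1843 genes, at a lower median depth of 548583 counts. Cells were also brought to 100000 counts each by random thinning, for which 1 fresh cell of each pool and 2 cells at 6 h were too shallow. The medians were then 1696 genes at 6 h, 2201.5 in fresh cells and 1561 in fresh cells of pool IM834. 18S rRNA took a median of 5.79% of the counts of a fresh cell and 3.92% at 6 h, mitochondrially encoded genes 2.02% and 2.51%, and cytosolic ribosomal protein genes 3.64% and 5.14%. In the median fresh cell of pool IM834 18S rRNA took 9.84%. The 2 groups shared 0 index pairs, 0 of the 12 i7 indices and all 7 i5 indices, and 0 columns of counts were identical.

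**Figure D1:**
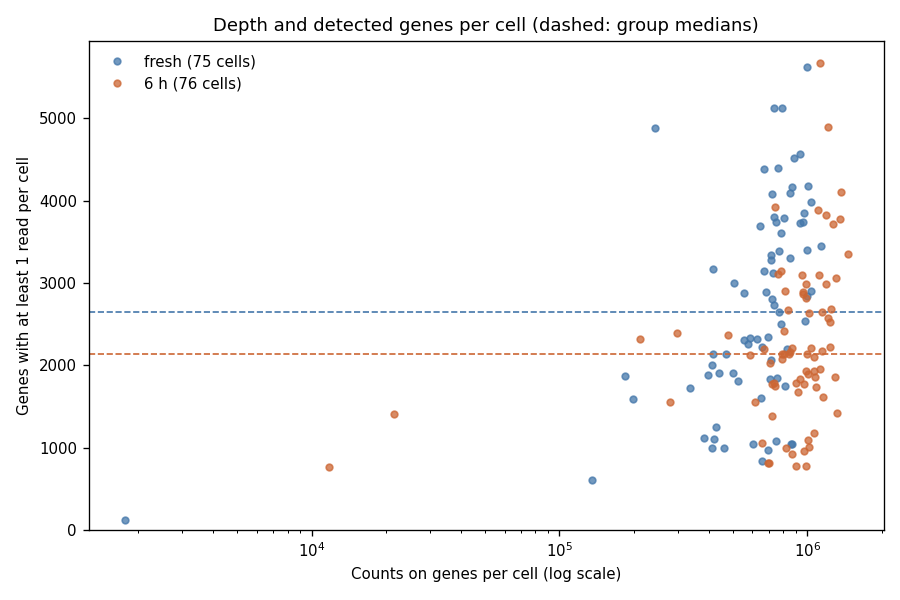
Genes with at least 1 read in each cell against its counts on genes (log axis), with each point a cell and dashed lines at the group medians. The 6 h cells lie further right, with a median of 962322 counts against 712369, while their median of 2136 genes is below the 2649 of fresh cells.

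The Cd45 sort was visible in the transcripts. The 4 pan-leukocyte genes Ptprc, Coro1a, Laptm5 and Cd52 summed to 1706 rpm (reads per 1000000 counts on genes) or more in every fresh cell and to 1728 rpm or more in every 6 h cell. Any of 4 kidney epithelial markers reached 10 rpm in 6 fresh cells and 3 cells at 6 h, with summed levels of at most 332 and 301 rpm. Of the 4 endothelial markers, Kdr and Emcn had no read in either group, and the 11 fresh cells and 14 cells at 6 h with any of the list held chiefly Pecam1, which leukocytes also carry. Erythroid markers were at 10 rpm in 3 and 6 cells, with a highest sum of 133.9 rpm. The part of such RNA in the results was not tested.

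Lymphocytes made up more of the 6 h cells and monocytes less. A cell was given a class when at least 2 of 4 marker genes of that class were at 10 rpm or more and no other class had as many. Lymphoid classes held 10 of 75 fresh cells (13.3%, interval 6.58 to 23.2%) and 35 of 76 cells at 6 h (46.1%, interval 34.5 to 57.9%), and these intervals do not overlap. Myeloid classes held 50 fresh cells (66.7%, interval 54.8 to 77.1%) and 35 cells at 6 h (46.1%, interval 34.5 to 57.9%), whose intervals overlap.

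B-like cells, marked by genes such as the B cell receptor components Cd79a and Cd79b, numbered 0 of 75 in the fresh group (interval 0 to 4.8%) and 8 of 76 at 6 h (10.5%, interval 4.66 to 19.7%). T-like cells, marked by Cd3e, Cd3d, Cd3g and Trbc2, were 9 (12%, interval 5.64 to 21.6%) and 18 (23.7%, interval 14.7 to 34.8%). NK-like cells were 1 and 7, and ILC2-like cells 0 and 2. Every lymphoid class was thus more numerous at 6 h, with overlapping intervals for each class taken alone.

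Patrolling monocyte-like cells, marked by Ace, Treml4, Cd300e and Eno3, were 15 in fresh kidney (20%, interval 11.6 to 30.8%) and 8 at 6 h (10.5%, interval 4.66 to 19.7%). Classical monocyte-like cells were 9 and 4, C1q macrophage-like cells 7 and 5, cDC1-like cells 4 and 2, and cDC2-like cells 1 and 2. Neutrophil-like cells, marked by Csf3r, S100a9, Cxcr2 and Retnlg, took the same share at both times, with 14 cells (18.7%) and 14 cells (18.4%). A tie between classes left 11 fresh cells and 4 cells at 6 h in several classes (among the fresh ones 3 tied between both kinds of monocyte and 3 between classical monocyte and cDC1), and 4 and 2 cells had no class. Doublets were not called, and no pDC-like or mast or basophil-like cell was found in either group.

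How often a marker was read outside its class differed between markers. Cd3e was at 10 rpm in 0 of 66 fresh cells and 2 of 58 cells at 6 h that were not T-like, whereas Cd3d was in 7 of 66 fresh cells and 6 of 58 cells at 6 h and Trbc2 in 2 of 66 fresh cells and 7 of 58 cells at 6 h outside the class. Among the markers of B cells, Cd79a was in 0 of 75 and 1 of 68 that were not B-like. Ly6c2, an antigen of classical monocytes, was in 30 of 66 fresh cells outside its class and 10 of 72 at 6 h. Ighm, the mu heavy chain of B cells, reached 10 rpm in 29 of 75 fresh cells although none of them was B-like, among them 6 of 7 C1q macrophage-like and 4 of 4 cDC1-like cells, while the kappa light chain Igkc had no read in any fresh cell.

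**Figure D2:**
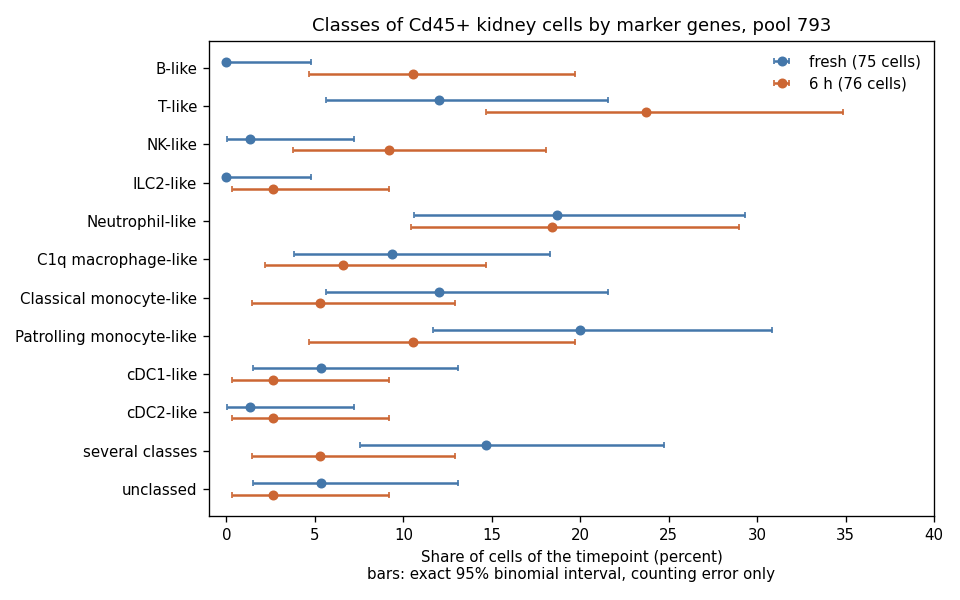
Share of cells in each class for fresh (75 cells) and 6 h (76 cells) kidneys, as points with exact 95% binomial intervals for counting error. Lymphoid points lie to the right at 6 h, T-like at 23.7% against 12%, monocyte points to the left, and the neutrophil points coincide at 18.4% and 18.7%.

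Within the larger classes genes per cell, with no correction for depth, were close between the times, although the 6 h cells were deeper. Median counts on genes were 708743 in fresh and 955878 in 6 h T-like cells. They were 627203 and 886948 in neutrophil-like cells and 654280 and 736078 in patrolling monocyte-like cells. Genes per cell at equal depth were not compared within classes. The median was 2198 genes in fresh and 2134.5 in 6 h T-like cells, 1061 and 978.5 in neutrophil-like cells, and 2303 and 2245.5 in patrolling monocyte-like cells. It was 3397 and 2997.5 in the few classical monocyte-like cells, and 3738 in 7 fresh against 2392 in 5 C1q macrophage-like cells at 6 h. The widest gap of these 5 classes was that of the C1q macrophage-like cells, which express the complement genes of resident macrophages.

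Across all cells, more genes were lower at 6 h than higher when set against the fresh cells of the same pool. A gene was counted when 10% or more of the fresh or of the 6 h cells had it at 10 rpm, and called higher or lower when its mean rpm differed at least 2-fold and its share of cells by at least 10 percentage points, which is a rule of size and not a test. Of 6808 genes counted, 2.59% were higher at 6 h and 7.89% lower, whereas against the fresh cells of the other pool, IM834, 13.4% were higher and 6.76% lower, so the direction with more genes depended on which fresh cells were used. The share of cells was lower at 6 h for 77.03% of the genes counted, with a median difference of -5.54 percentage points. Within patrolling monocyte-like cells it was lower for 47.7%, with a median difference of 0 points. With TMM or DESeq2 factors the log2 ratio of 6 h to fresh means shifted by -0.17 and -0.20 for every gene, and 2.29% and 2.22% of genes were higher and 9.93% and 10.3% lower. Of the 459 pseudogenes and predicted genes among them, 35 were higher (7.63%) and 25 lower (5.45%). Because the classes changed their shares, the rule was also applied to means that give T-like, neutrophil-like and patrolling monocyte-like cells equal weight, with 4.69% of 6039 genes higher and 14% lower.

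**Figure D3:**
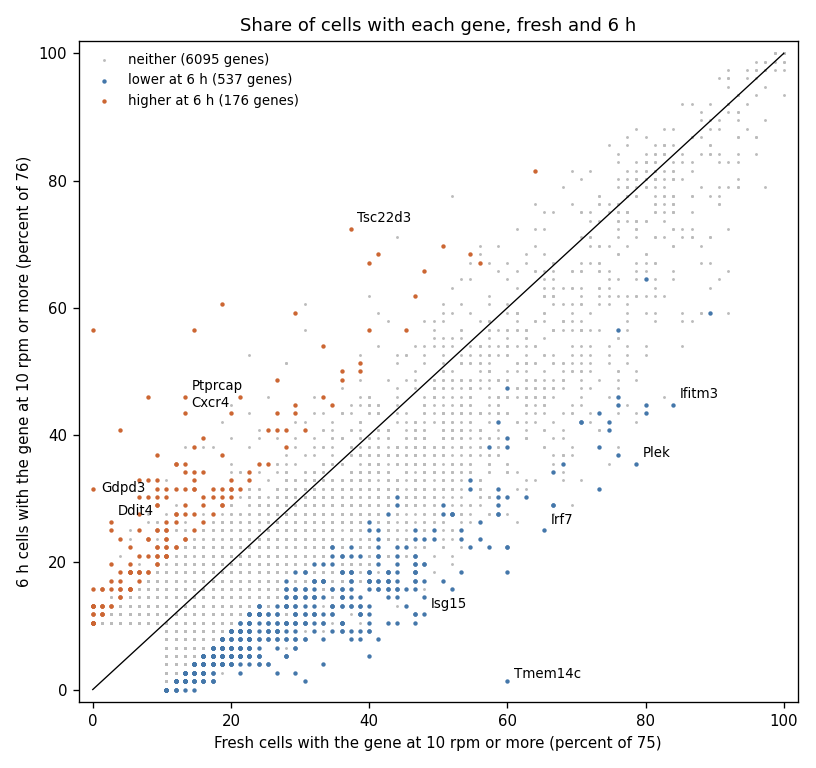
Share of 6 h cells against share of fresh cells with each of the 6808 counted genes at 10 rpm or more, with the diagonal of equal shares and the genes past the rule of size in colour. Tmem14c stands alone at the lower right with 60% of fresh cells and 1.32% at 6 h, and Gdpd3 at the left edge with 0% and 31.6%.

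Tsc22d3, Cxcr4 and Ddit4 were among the 12 genes whose share of cells rose most, and each is a regulator that many kinds of leukocyte use. Tsc22d3 (X chromosome), the glucocorticoid-induced leucine zipper protein GILZ, was in 37.3% of fresh cells and 72.4% at 6 h, with a lowest, median and highest value of 0, 0 and 3179.6 rpm in fresh cells and of 0, 767 and 7886 rpm at 6 h. Its mean was 5.46-fold higher. It rose past the rule in neutrophil-like cells (2 and 9 of 14) and patrolling monocyte-like cells (6 of 15 and 6 of 8), was in T-like cells without passing it (5 of 9 and 13 of 18), and in all 8 B-like cells. Cxcr4, the receptor for the chemokine Cxcl12 that retains leukocytes in tissue and marrow, went from 10 to 33 cells and from a mean of 8.14 to 81.5 rpm. With any read counted as detection the difference in its share of cells was 18 rather than 30.1 points. Ddit4, an inhibitor of the growth kinase mTORC1 that hypoxia, energy stress and glucocorticoids induce, was in 2 fresh cells and 20 at 6 h, at a low mean of 13.8 rpm, and 8 of those cells were T-like. Fkbp5 and Per1, further genes that glucocorticoids induce and that were looked up after the values of Tsc22d3 were seen, were in 4 and 3 and in 37 and 18 cells.

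Of the other 9 largest rises, Ptprcap, S1pr1, Lck, Sept1 and Cd2 did not pass the rule with the 3 classes weighted equally, while Gdpd3, Cwc22, Bin1 and Tbc1d10c did, as did Tsc22d3, Cxcr4 and Ddit4. Ptprcap, the Cd45-associated protein of lymphocytes, was in 13.3% of fresh cells and 46.1% at 6 h, Lck, the kinase of the T cell receptor, in 12% of fresh cells and 35.5% at 6 h, and Cd2, an adhesion receptor of T and NK cells, in 9.33% of fresh cells and 31.6% at 6 h. S1pr1, the sphingosine receptor by which lymphocytes leave tissue, was in 6 of 75 fresh cells and 25 of 76 at 6 h, where all 8 B-like and 15 of 18 T-like cells carried it. Bin1, a membrane-curving protein, and Tbc1d10c, a negative regulator of Ras and calcineurin, rose 5.82-fold and 8.36-fold, Sept1, a septin, 3.28-fold, and Cwc22, a splicing factor, 8.03-fold. Cwc22 went from 0 of 9 to 8 of 18 T-like cells and from 0 of 9 to 2 of 4 classical monocyte-like cells. It was in 2 of 7 and 2 of 5 C1q macrophage-like cells, and was in no neutrophil-like or patrolling monocyte-like cell at 6 h.

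The largest fall was that of Tmem14c, described at the end, followed by that of Plek. Plek, pleckstrin, a substrate of protein kinase C in platelets and myeloid cells, was in 78.7% of fresh cells and 35.5% at 6 h, its mean falling from 1212 to 345 rpm. It was read in 12 of 14 fresh neutrophil-like cells and 7 of 14 at 6 h, and in 14 of 15 and 4 of 8 patrolling monocyte-like cells. Ets2, a transcription factor downstream of Ras, fell 4.13-fold, Picalm, a clathrin assembly protein, 4.62-fold, and Ly6c2 5.01-fold. Nfe2l2, which encodes the oxidative stress factor NRF2, was in 76% of fresh cells and 36.8% at 6 h, and Plekho2 and Sirpb1c each fell a little over 2-fold. With equal weight of classes 6 of the 12 largest falls passed the rule (Tmem14c, Plek, Irf7, Ets2, Picalm and Ly6c2) and 6 did not (Plekho2, Sirpb1c, Ifitm3, Nfe2l2, Zbp1 and Gbp2).

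The 12 largest falls also held Irf7, Ifitm3, Zbp1 and Gbp2, each known to be induced by interferons. Irf7, the transcription factor that amplifies type I interferon, was in 65.3% of fresh cells and 25% at 6 h, with lowest, median and highest values of 0, 265.9 and 4087 rpm in fresh cells and of 0, 0 and 1151 rpm at 6 h. Isg15, a ubiquitin-like modifier, was in 48% of fresh cells and 11.8% at 6 h, and its mean went from 138.6 to 21.9 rpm. Ifitm3, which blocks virus entry, was in 84% of fresh cells and 44.7% at 6 h, Zbp1, a sensor of nucleic acids, in 66.7% of fresh cells and 28.9% at 6 h, and Gbp2, a guanylate binding protein, in 80% of fresh cells and 43.4% at 6 h. Ifitm3 was still in all 15 fresh and all 8 later patrolling monocyte-like cells, whereas Irf7 went from 14 of 15 to 3 of 8 in that class.

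Of the 12 genes on the type I interferon list, 11 were counted, 5 were lower (Irf7, Isg15, Oasl2, Isg20 and Mx1, against 7.89% of all genes) and none higher, with a median difference in share of -13.4 points against -5.54 over all genes. Ifit2, an interferon-induced RNA-binding protein on the same list, went the other way without passing the rule, from 3 to 10 cells. With equal weight of classes 3 of the 11 counted were lower (Irf7, Isg15 and Isg20, against 14% of all genes) and 1 higher, Ifit2 (against 4.69%), with a median difference of -9.33 points against -5.48 over all genes. Of the gamma interferon list 11 were counted and 2 lower, Gbp2 and the complement factor Cfb, with a median difference of -24.5 points. With equal weight it was -14.4 points, with 2 lower, Cfb and Gbp3. Of the 9 MHC class I presentation genes counted Nlrc5, their transactivator, was lower, and the 7 MHC class II genes counted had 0 calls. The call of Nlrc5 was lost with equal weight of classes, and 1 of 6 MHC class II genes was lower, H2-Eb1, an MHC class II beta chain.

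Promoter stretches of Isg15, which fell, and of the heat shock gene Hspa1a, which rose, are shown because they hold the textbook motif of the factor that each is known to answer to. An interferon-stimulated response element holds 2 copies of GAAA with any 2 bases between them, and this motif stood on either strand in 2.98% of all 32851 RefSeq promoter windows (the 250 bases before a start site) and in 5 of the 10 type I interferon list members that had a window. Of the 4 with a window among the 5 that fell, 1 held it, Isg15. It also stood in 6 of the 8 gamma interferon list members with a window. A heat shock element contains GAANNTTC, which reads the same on both strands and stood in 6.69% of windows and in 6 of the 9 heat shock list members with one, among them Hspa1a and Hspa1b. The stretches of 60 bases below are 5′ to 3′ on the strand of the gene, from RefSeq on GRCm38.p6, with all matches to the motif in capitals. For Isg15, whose matches overlap, it lies at chr4:156200850-156200909 on the minus strand, and for Hspa1a at chr17:34972227-34972286 on the minus strand.
Isg15: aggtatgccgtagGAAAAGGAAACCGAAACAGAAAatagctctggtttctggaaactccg
Hspa1a: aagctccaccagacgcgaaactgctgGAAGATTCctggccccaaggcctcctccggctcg
The Hspa1b stretch at chr17:34959309-34959368 has the same 60 letters as that of Hspa1a. A match is a string of letters and not a measured site.

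Of the heat shock chaperones the stress-inducible pair Hspa1a and Hspa1b rose. Hspa1a, the inducible Hsp70 at chromosome 17, 34969190 to 34972156 on the minus strand (GENCODE M21, GRCm38), was in 14.7% of fresh cells (interval 7.56 to 24.7%) and 34.2% at 6 h (interval 23.7 to 45.99%), its mean going from 58.9 to 143.3 rpm. Hspa1b was in 16% and 34.2%, and because these genes are nearly identical their reads cannot be assigned securely to one of them. By class Hspa1a was in 3 of 7 and 4 of 5 C1q macrophage-like cells, 3 of 15 and 5 of 8 patrolling monocyte-like cells, 1 of 9 and 4 of 18 T-like cells and 1 of 14 and 1 of 14 neutrophil-like cells. No chaperone was higher by the rule within the T-like, neutrophil-like or patrolling monocyte-like cells, while with equal weight of these classes Hspa1a and Hspa1b were. Of the 11 chaperones counted these were the 2 higher (2.59% over all genes) and 0 were lower, the list median being -2.04 points. Both were in the same number of 6 h cells of every class, and with reads that may be shared they are not 2 separate observations. Hspa5, the chaperone of the endoplasmic reticulum, was in 77.3% of fresh cells and 59.2% at 6 h without passing the rule. The cold-inducible RNA-binding genes did not pass it either, with Rbm3 in 65.3% of fresh cells and 59.2% at 6 h and Cirbp in 16% of fresh cells and 13.2% at 6 h.

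**Figure D4:**
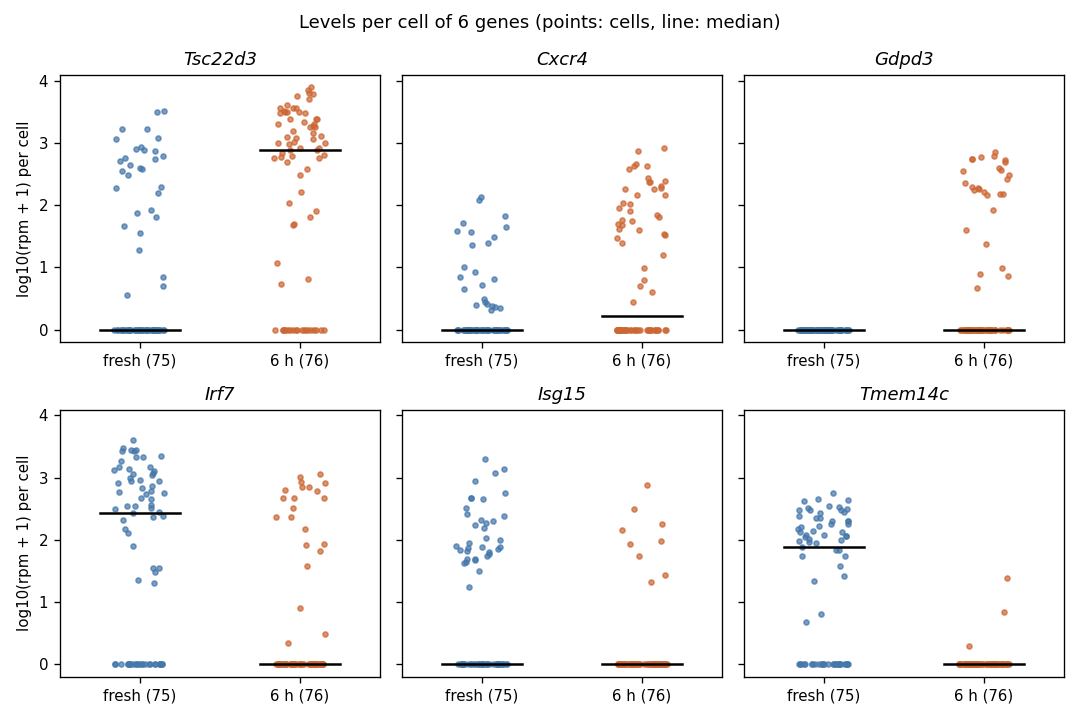
Level per cell, as log10(rpm + 1), of 6 genes in fresh (75) and 6 h (76) cells, with points for cells and lines for medians. Tsc22d3, Cxcr4 and Gdpd3 are read in more cells at 6 h, and Irf7, Isg15 and Tmem14c in fewer, Tmem14c in 1 cell at 10 rpm or more.

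The immediate early genes encode AP-1 and other transcription factors that cells switch on within minutes of a stimulus. Over all cells they gave 2 calls among 21 counted, Klf2 higher (against 2.59% of all genes) and Fosl2 lower (against 7.89%). Their median difference was -9.04 points. The summed level was 11489.9 rpm in the median fresh cell and 12454.5 rpm in the median 6 h cell. The direction turned with equal weight of classes, where 4 of 20 were higher (Klf2, Jun, Klf4 and Ier5, against 4.69% of all genes) and none lower, with a median difference of 1.62 points. Of the 13 inflammatory genes of the NF-kB response counted, 5 were lower (Nfkbiz, Tnf, Ccl4, Ccl2 and Cd83, against 7.89% of all genes) and none higher, with a median difference of -17.7 points. With equal weight of classes 3 of 12 were lower (Ccl4, Icam1 and Relb), against 14% of all genes, with a median of -14.6 points. Their summed level went the other way in the median neutrophil-like cell, from 12271 rpm in fresh to 20020.1 rpm in 6 h cells, with overlapping ranges (1004 to 34040.3 and 1291 to 42543 rpm), while it was 5816 and 2628 rpm in the median of all cells. Tnf, the cytokine, was in 40% of fresh cells and 11.8% at 6 h, the chemokine Ccl4 in 42.7% of fresh cells and 18.4% at 6 h, and Nfkbiz, a nuclear IkB protein, in 73.3% of fresh cells and 38.2% at 6 h. Il1b, the other main cytokine, was in 68% of fresh cells and 36.8% at 6 h without passing the rule, with means of 3412 and 2241 rpm. Among genes of survival and death 4 of 11 were lower, against 7.89% of all genes, namely the BH3-only proteins Bcl2l11 and Pmaip1, the effector Bak1 and the survival protein Bcl2a1b, the last with near-identical paralogs. Of the 10 antioxidant genes counted Hmox1, heme oxygenase, was lower (against 7.89% of all genes), from 20 to 5 cells. Sod1, superoxide dismutase, was higher (against 2.59% of all genes), from 35 to 47 cells.

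Of the 15 hypoxia and glycolysis genes counted Ddit4 was higher (against 2.59% of all genes) and Bnip3 and Pdk1 were lower (against 7.89%). Ddit4 alone was called with equal weight of classes. The glucose transporter Slc2a1 was in 37.3% of fresh cells and 14.5% at 6 h, and hexokinase Hk2 in 33.3% of fresh cells and 14.5% at 6 h. Neither passed the rule over all cells. None of 77 ribosomal protein genes, 12 mitochondrially encoded genes, 10 actin cytoskeleton genes, 11 cell cycle genes, 10 neutrophil identity genes, 4 cytotoxic genes or 5 noncoding RNAs counted was called in either direction over all cells. Under equal weighting 2 mitochondrially encoded genes were higher (mt-Atp8 and mt-Nd3, of 12 counted, against 4.69% of all genes). G0s2 of 6 neutrophil genes and Klrk1 of 6 cytotoxic genes were lower, against 14% of all genes. Both immunoglobulin constant genes counted were higher (Ighm and Igkc), and so were 6 of 8 naive T and homing genes (Ccr7, Il7r, S1pr1, Lef1, Tcf7 and Klf2), against 2.59% of all genes. B-like and T-like cells were more numerous at 6 h, and their part in these rises was not tested. With equal weight of classes 3 of the 8 naive T genes were higher (Klf2, Il7r and Ccr7, against 4.69% of all genes). Xist, read from the inactive X, was lower over all cells, in 60% of fresh cells and 47.4% at 6 h. Weighted equally over the classes it was in 42.5% and 43.3% and was not called. It was in 6 of 9 and 6 of 18 T-like cells and, the other way, in 7 of 15 and 6 of 8 patrolling monocyte-like cells. The 4 Y-linked genes listed had no read at 10 rpm in any cell of either group.

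Within T-like cells (9 fresh and 18 at 6 h) more genes were lower than higher. Here a gene was counted at 25% of the cells of either group and called at 25 percentage points and 2-fold. Of 3521 genes 3.78% were higher and 17.3% lower, and the median difference over all genes counted was -16.7 points. With 9 fresh cells a single cell is worth 11.1 points.

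Klf2 and Txnip, both known to be high in resting T cells, were among the 6 leading rises in T-like cells. Klf2, the transcription factor of T cell quiescence that drives S1pr1, was in 1 of 9 fresh cells and 13 of 18 at 6 h, its mean going from 11.5 to 263.9 rpm. Txnip, an inhibitor of glucose uptake that growth signals switch off, was in 3 of 9 and 17 of 18, with medians of 0 and 1133 rpm. Traf3ip3, an adaptor of lymphocytes, was in 3 of 9 and 17 of 18 cells, Bin1 in 0 of 9 and 9 of 18, Chmp1a, an ESCRT protein, in 1 of 9 and 11 of 18, and Psme2b, a proteasome activator copy with a near-identical relative, in 3 of 9 and 14 of 18. Igtp, an immunity-related GTPase of the gamma interferon list, rose as well, from 3 of 9 to 11 of 18, while Gbp7 of the same list fell and Isg20, the 1 type I interferon gene counted, fell from 3 of 9 to 0 of 18. Naive T genes other than Klf2 were not called, for example Ccr7, the lymph node homing receptor, in 5 of 9 and 11 of 18 and Lef1 in 7 of 9 and 13 of 18. The summed cytotoxic list had medians of 2583 and 0 rpm in T-like cells, with overlapping ranges (0 to 12107 and 0 to 14986 rpm). Of its 5 genes counted 0 were called, with a median difference of -22.2 points against -16.7 over all genes. The summed cell cycle list had medians of 516 and 63.1 rpm. The part of T cell subsets in the rises and falls was not tested.

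Stat3 was among the 6 leading falls in T-like cells. Stat3, the cytokine signal transducer, was in 7 of 9 fresh cells and 2 of 18 at 6 h, with lowest, median and highest values of 0, 264.5 and 1338 rpm against 0, 0 and 1363 rpm. Mrps16, a mitochondrial ribosome subunit, was in 8 of 9 and 1 of 18, Dgkd, a diacylglycerol kinase, in 7 of 9 and 2 of 18, Nek7, a kinase of the NLRP3 inflammasome, in 7 of 9 and 2 of 18, Pnrc1, a nuclear receptor coactivator, in 8 of 9 and 4 of 18, and Tuba1c, a tubulin, in 7 of 9 and 3 of 18. Among immediate early genes 3 of 16 fell, Gadd45b (5 of 9 and 1 of 18), Btg2 and Fosl2, a share close to the 17.3% of all genes, and 1 rose, Klf2. Of the NF-kB list Nfkbiz and Icam1 fell, and Hspa5 fell, with means of 1722 and 465 rpm. Fos had means of 545 and 2549 rpm, in 6 of 9 and 12 of 18 cells, and did not pass the rule.

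Within neutrophil-like cells (14 and 14) 4.39% of 1435 genes were higher and 12.4% lower, with a median difference of -7.14 points. Rises were led by Lrrc58 (1 of 14 and 12 of 14), a leucine-rich repeat protein, at low levels of 3.06 and 22.2 rpm in the median cell, then Tsc22d3 (2 of 14 and 9 of 14), Rhob, a stress-induced small GTPase (1 of 14 and 7 of 14), Dynlt1b, a dynein light chain (1 of 14 and 7 of 14), Supt4a, a transcription elongation factor (4 of 14 and 10 of 14), and Mdh2, mitochondrial malate dehydrogenase (6 of 14 and 12 of 14). Dynlt1b and Supt4a belong to sets of near-identical genes or pseudogenes. Falls were led by Picalm (12 of 14 and 3 of 14), Atp11a, a phospholipid flippase (11 of 14 and 2 of 14), Efhd2, a calcium-binding actin regulator (10 of 14 and 2 of 14), Oas3, an antiviral oligoadenylate synthetase (13 of 14 and 5 of 14), Bcl2a1b (8 of 14 and 0 of 14) and Vmp1, an autophagy protein (11 of 14 and 3 of 14). Of 8 type I interferon genes counted here 2 fell (against 12.4% of all genes), Isg15 (12 of 14 and 5 of 14, mean 553 and 97.3 rpm) and Irf7 (8 of 14 and 4 of 14). Another 3 were in more cells at 6 h without passing the rule. None of 8 gamma interferon genes counted was called.

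The level of immediate early transcripts in the median neutrophil-like cell was higher at 6 h, which a rule that needs a change in the share of cells cannot call for genes that nearly every neutrophil carries. Their summed level over the 21 list genes had a lowest, median and highest value of 2999, 14819.6 and 45439 rpm in fresh and of 4034, 41916 and 81111 rpm in 6 h neutrophil-like cells, so that the ranges overlap. Fos was in 12 of 14 cells at both times with means of 1323 and 8077 rpm. Dusp1, the phosphatase that ends MAP kinase signals, was in 11 of 14 and 13 of 14 with means of 2767 and 10603 rpm, and Zfp36, which destabilises cytokine mRNAs, in 13 of 14 and 14 of 14 with means of 883 and 4070.2 rpm. Junb was in all 14 cells of each time, at means of 3669 and 7412 rpm. Of 19 list members counted 1 rose past the rule, Jun (1 of 14 and 6 of 14, against 4.39% of all genes). Another 1 fell, Jund (8 of 14 and 4 of 14, against 12.4% of all genes). Of the other lists Hspa8, the constitutive Hsp70, fell (12 of 14 and 6 of 14), and the chemokine Cxcl2 (9 of 14 and 12 of 14) and Il1b (13 of 14 and 12 of 14) did not pass the rule. The 7 granule and identity genes counted had 1 call, G0s2, a lipase inhibitor, which fell (11 of 14 and 6 of 14), against 12.4% of all genes.

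Patrolling monocyte-like cells (15 and 8) had the most even split, with 12.1% of 3991 genes higher, 13.5% lower and a median difference of 0 points. At 8 cells a gene is counted from 2 cells on. Rises were led by Chil1, a chitinase-like secreted protein (0 of 15 and 5 of 8), Ceacam2, an adhesion molecule (0 of 15 and 5 of 8), Ubl7, a ubiquitin-like protein (2 of 15 and 6 of 8), Cxcr4 (4 of 15 and 7 of 8, medians 0 and 124.4 rpm), Smpdl3a, a phosphodiesterase (4 of 15 and 7 of 8), and Lmbrd1, a lysosomal cobalamin transporter (1 of 15 and 5 of 8). Falls were led by Uqcrq, a subunit of respiratory complex III (13 of 15 and 1 of 8), Oas1a, an antiviral synthetase with close relatives (11 of 15 and 0 of 8), Tmem14c (11 of 15 and 0 of 8), Tspo, a protein of the outer mitochondrial membrane (14 of 15 and 2 of 8), Ccrl2, a chemerin receptor (12 of 15 and 1 of 8), and Mxd1, a MYC antagonist (10 of 15 and 0 of 8).

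In the same monocytes more immediate early genes rose than fell, and more interferon genes fell than rose. Of 19 immediate early genes counted 5 rose (Dusp1, Klf2, Klf4, Ier5 and Fosb, against 12.1% of all genes) and 1 fell, Gadd45b, and the summed level of the list had a median of 11156 rpm in fresh and 28239.7 rpm in 6 h cells, with overlapping ranges (4057 to 38923 and 7226 to 67822 rpm). Klf2 went from 9 of 15 to all 8 cells, at means of 184.9 and 1366 rpm, and Dusp1 from 11 of 15 to all 8, at means of 949 and 4124 rpm. Of 6 type I interferon genes counted 3 fell (against 13.5% of all genes), Irf7 (14 of 15 and 3 of 8), Isg15 (7 of 15 and 0 of 8) and Bst2, the virion tether tetherin (7 of 15 and 0 of 8), and 1 rose, Ifit2, on 2 cells. Of 10 gamma interferon genes 4 fell, against the same share, Gbp2 (14 of 15 and 4 of 8), Gbp5, Irgm1 and Cfb. The summed type I interferon level had medians of 1645 and 164.1 rpm in these cells, with means of 1939.7 and 451 rpm and ranges of 267.5 to 4952 and 0 to 1283 rpm. In neutrophil-like cells the medians were 6074 and 1771 rpm, the means 5539.6 and 4358 rpm and the ranges 547 to 11134 and 0 to 19251 rpm, so that the highest cell was one of 6 h. In T-like cells the median was lower at 6 h (145.04 and 0 rpm) but the mean higher (176.7 and 226.8 rpm), with ranges of 0 to 481 and 0 to 2492 rpm. Hmox1 fell (6 of 15 and 0 of 8), and Icam1, the adhesion ligand of integrin LFA-1, fell (7 of 15 and 0 of 8). Ccr7 and S1pr1 passed the rule as higher on 2 of 8 cells each, with highest values of 4669.9 and 2193 rpm against medians of 0.677 and 0 rpm. Csf3r, a marker of the neutrophil-like class, rose as well (6 of 15 and 7 of 8), and its part, and that of the lymphocyte genes, in the other differences was not tested.

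**Figure D5:**
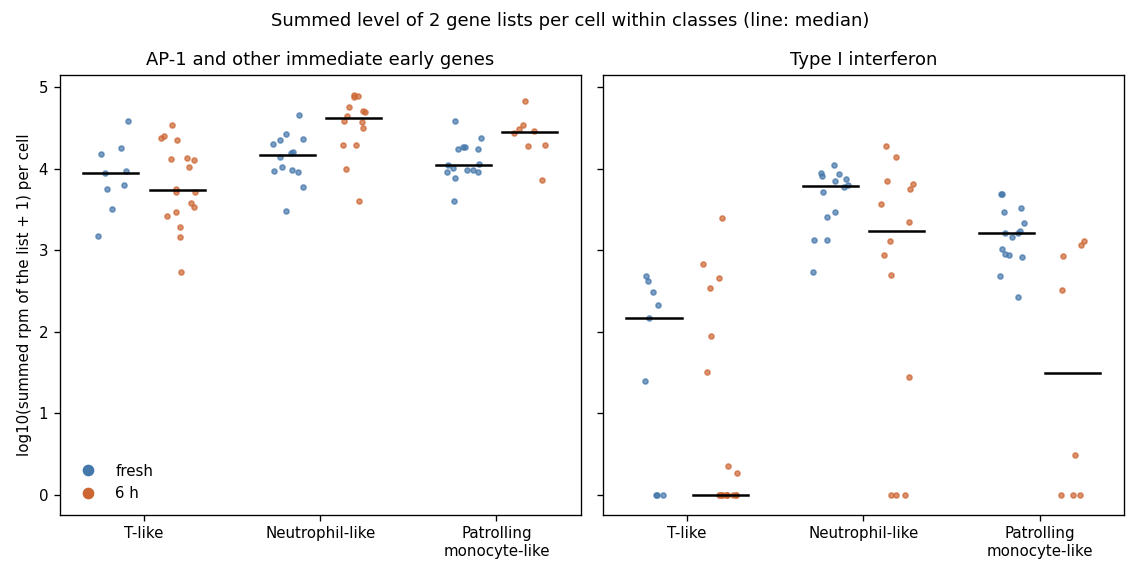
Summed level per cell of the immediate early and type I interferon lists in 3 classes, as log10(summed rpm + 1), with points for cells and lines for medians. Immediate early medians are higher at 6 h in neutrophil-like cells (41916 against 14819.6 rpm) and patrolling monocyte-like cells but not in T-like cells (5461 against 8773 rpm), and type I interferon medians are lower in all 3, with overlapping ranges.

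Few genes passed the rule in all 3 classes. Of 789 genes counted in each, Gdpd3 was higher in all. Coq10b, a coenzyme Q chaperone, Gsk3b, the kinase GSK3 beta, and Icam1 were lower in all. Without the condition that a gene be counted in all 3, 21 genes were higher and 81 lower in at least 2 classes. Coq10b was in 44% of fresh cells and 10.5% at 6 h over all cells, and Gsk3b in 44% of fresh cells and 18.4% at 6 h. Differences between classes in these changes were not tested.

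For 3 rows one of the groups had at most 1 cell at 10 rpm or more. Tmem14c, a mitochondrial membrane protein of heme synthesis at chromosome 13, 41016292 to 41022586 on the plus strand, was in 45 of 75 fresh cells and 1 of 76 at 6 h, a cDC1-like cell. Its highest values were 556 and 23.9 rpm. Gdpd3, a lysophospholipase D at chromosome 7, 126766334 to 126775649 on the plus strand, had no read in the fresh cells (interval 0 to 4.8%) and was in 24 cells at 6 h (31.6%, interval 21.4 to 43.3%) in 6 classes, among them 4 of 8 B-like, 7 of 18 T-like and 5 of 14 neutrophil-like cells, and in cells with no single class. The pseudogene row Rpl17-ps5, named after its values were seen at chromosome 5, 22612628 to 22613182 on the minus strand, which can share reads with Rpl17, was at 10 rpm in 0 fresh cells and 43 cells at 6 h, though 34 fresh cells had a read. In the 78 day 2 cells of the same pool Tmem14c was in 0%, Gdpd3 in 26.9% and Rpl17-ps5 in 69.2%, and in the 81 fresh cells of the other pool, IM834, in 14.8%, 8.64% and 72.8%. For Gdpd3 the difference between the fresh cells of the 2 pools was under 10 points, and their intervals overlap. Strand was ignored in counting, so reads of overlapping and antisense genes cannot be told apart in any row.

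The fresh cells of the 2 pools, neither of them stored, differed from each other by the same rule. Fresh cells of pool IM834 against fresh cells of pool IM793 had 6.02% of 6760 genes higher and 18.8% lower, beside 2.59% and 7.89% for the 6 h cells. Day 2 cells of pool IM793 had 3.72% of 6658 genes higher and 17.5% lower, and all 3 comparisons share the fresh cells of pool IM793. Lymphoid classes held 83.95% of the fresh cells of pool IM834 and 67.9% of the day 2 cells, and neutrophil-like cells 0 of 81 and 1 of 78. Of the sex-linked list 3 genes were counted between the fresh groups. In pool IM834 2 Y-linked genes were higher (against 6.02% of all genes) and Xist was lower (against 18.8%). The part of the sex of the animals in the differences between pools was not tested. Fresh cells of pool IM834 had Irf7 in 11.1%, Isg15 in 1.23%, Tsc22d3 in 64.2% and Cxcr4 in 35.8% of cells, with Hspa1a in 9.88% and Ddit4 in 19.8%. The day 2 cells had Irf7 in 8.97%, Isg15 in 5.13%, Tsc22d3 in 67.9%, Cxcr4 in 33.3% and Hspa1a in 46.2%. How much of any of these differences came from storage was not tested, since each time of pool IM793 is 1 sample.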

How the data were processed

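Single Cd45+ kidney cells, 75 fresh and 76 after 6 h in HTS-FRS at 4 °C, were taken by the timepoint and pool number in their labels. Per the methods, the authors trimmed the reads and removed duplicates with picard MarkDuplicates. Alignment to GRCm38 used STAR. Counting per gene used HTSeq without regard to strand. Cells with few reads were left out, and 1 table of raw counts per gene and cell was deposited. The versions of STAR and HTSeq were not stated. No molecular identifiers were used, so reads left after duplicate removal are not counts of molecules.

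From the counts, the 96 ERCC rows and the row of a spike-in vector (0.000198% of fresh and 0.000103% of 6 h counts) were dropped, which left 46603 gene rows, and each cell was divided by its total and multiplied by 1000000 (rpm). A gene was detected in a cell at 10 rpm. The rule of size asked for detection in 10% of either group, a 2-fold difference of mean rpm and 10 percentage points in share, and within a class of at least 8 cells in both groups for 25% and 25 points, with that class's own markers left out. A fold against a group with no read was taken as a lower bound against 3 counts over the group. Named genes were, over all cells, the 12 largest rises and falls among genes past the rule and, within a class, the 6 largest, by difference in share, together with up to 4 members per list and the markers. Others were chosen after their values were seen: Rpl17-ps5, Fkbp5, Per1, Coq10b, Gsk3b and members of the lists described for their level. Pseudogenes and predicted genes were counted and not named otherwise, and 1 marker gene is not reported here. Classes, the 21 gene lists and the comparison itself were chosen with earlier results of these data known.

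Each cell was also thinned to 100000 counts. TMM factors (edgeR 4.0.16) and size factors (DESeq2 1.42.0) of summed counts, run in R 4.3.3, served as alternatives, beside detection at 1 read or 50 rpm, 3 markers per class, totals without 18S rRNA, no entry filter, summed counts, fresh cells of pool IM834, equal weight of classes and omission of cells under 100000 counts. Other steps used Python 3.11.15 with numpy 2.4.6, pandas 2.3.3 and scipy 1.17.1, and the rule was tested on simulated data. Coordinates are from GENCODE M21. Cells are not replicates, so there are no p-values.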

Additional observations from a re-analysis of the deposited data

Results flagged for a closer look

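The rows of the ERCC spike-in RNAs, which were dropped before all comparisons, took 0.000282% of counts in the 6 h cells, slightly above the 0.000255% in the fresh cells. They are listed because they hold a signal outside the main measurement that was above its level in the fresh cells.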

How the results depend on the processing

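No paired analysis was possible because the labels give no replicate numbers and each time of pool IM793 is 1 sample, so no replicate could be left out either. Genes per cell moved by more than the tolerance of 10% with thinning to 100000 counts (1696 at 6 h and 2201.5 fresh). They also did with genes at 10 rpm or more (1556.5 and 2049) and with the fresh cells of pool IM834 (1843). They were fewer at 6 h in each of the first 2. Against the shallower fresh cells of pool IM834 they were more numerous at 6 h, at 2136, and after thinning the medians were 1696 and 1561. The share of counted genes called higher at 6 h over all cells, 2.59%, was 3.95% with any read as detection, 4.69% with equal weight of classes and 13.4% against the fresh cells of pool IM834, where 6.76% were lower. The share called lower, 7.89%, was 14% with equal weight. With any read as detection the share called higher was 4.94% in T-like and 14.3% in patrolling monocyte-like cells, against 3.78% and 12.1%. The causes of these moves were not tested. With no entry rule the numbers of genes called were unchanged, but as shares of all genes with a read they were 1.04% and 3.17% over all cells, 1.14% and 5.23% in T-like, 0.751% and 2.12% in neutrophil-like and 4.66% and 5.20% in patrolling monocyte-like cells. No other alternative value of class shares, depth or gene counts left its tolerance (for shares the 95% interval of the reported share, for numbers of genes called 1.5 times), although requiring 3 of 4 markers took the fresh classical monocyte-like cells from 12% to 6.67%, against 5.26% and 3.95% at 6 h. Of 96 alternative values for named genes, 95 stayed within 10 points and that of Cxcr4 with any read as detection moved to 18 points. None reversed. Equal weight of classes and the exclusion of cells under 100000 counts were chosen after the data were seen. Requiring 3 of 4 markers left too few patrolling monocyte-like cells for a value. The limit on every result is 1 sample per time in pool IM793, and at 8 to 18 cells a class the interval of a share is wide.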
